A study of Arabidopsis thaliana with 10 samples.

Results

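Generation 3 was compared with generation 2 in Arabidopsis thaliana Col-0, both being unstressed descendants of plants grown at 30 °C. The members are the 4 libraries that the sample titles give to these generations, 2 of each, out of 10 libraries of 5 groups in the series. Generation 3 descends from generation 2, and generation 2 from the 30 °C-grown plants. Both are of genotype Col-0, were 4 weeks old, and gave polyA RNA from the fifth true leaves. Seedlings were raised at 22 °C until transplanting, and plants not given heat stayed at 22 °C. Days had 16 h of light, followed by 8 h of darkness. The heat treatment thus lies 2 generations back in generation 3 and 1 generation back in generation 2, and wild-type plants take no part in the comparison. The sources used here do not say how many plants went into a library, or whether the libraries of a generation came from separate plants. The p-values therefore reflect just the spread between these libraries, and that spread may be technical.

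Heat acts on a leaf through heat shock factors, which switch on chaperone genes, and the transcripts usually fade once the heat is gone. Memory of a stress beyond the plant that met it is discussed mainly in terms of chromatin marks and small RNAs. Among these are the trans-acting small RNAs, which are made from TAS transcripts by SGS3 and RDR6 and cut the transcripts of HTT and ARF genes. Leaf transcripts also follow the time of day, light, wounding and nutrients, so samplings of the same line can differ in many of them.

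Total counts per library were 17674090 and 21498999 in generation 3, against 22278385 and 20533208 in generation 2. In the table of 33602 gene IDs, 18631 had enough counts to test. Leaf identity was clear in the values: transcripts of the photosystem and antenna list made up 294300 and 151400 CPM (a gene's counts scaled to a common library total, with TMM factors) in generation 3 and 328900 and 124400 CPM in generation 2. Of 16 markers of meristem, flower, seed and root, 6 were tested, and STM, WUS, CLV3, OLEO1, CRA1, CRU3 and IRT1 had 0 counts in all 4 libraries. Summed over the tested markers, these lay between 35.7 and 53.8 CPM in generation 3 and between 36.4 and 38.7 CPM in generation 2.

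The libraries did not group by generation. Pearson's r of log2(CPM + 1) across genes was 0.917 between the generation 3 libraries and 0.771 between the generation 2 libraries. It was 0.958 between library 1 of generation 3 and library 1 of generation 2, and 0.922 between library 2 of generation 3 and library 2 of generation 2. These are descriptions across genes, which are not independent replicates. In 8324 genes, 44.7% of those tested, both generation 3 libraries lay between the generation 2 libraries, while the reverse held for 2386 genes (12.8%). The generation 2 libraries thus stood apart from each other in opposite directions, with generation 3 inside the gap. Library 2 of generation 2 was the highest of the 4 by 4-fold or more in 543 genes (2.91%), against 9 genes (0.0483%) and 12 genes (0.0644%) for the generation 3 libraries and 4 genes (0.0215%) for library 1 of generation 2. Lists below are therefore given with single libraries. Where a printed median turns, it is also given without a library that turns it, and medians of some lists, such as senescence genes, are not printed.

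Transcript length moved with the same split. For each 10-fold increase in length, a gene's deviation from its mean over the 4 libraries changed by -0.39 and 0.52 (log2) in generation 3 and by -1.29 and 1.16 in generation 2. In the 10% of genes with the longest transcripts, the median deviation was -0.24 and 0.31 in generation 3 and -0.84 and 0.77 in generation 2. In the 10% with the shortest it was 0.08 and -0.17 in generation 3 and 0.39 and -0.31 in generation 2. Long transcripts were thus low in library 1 and high in library 2 of both generations, more widely so in generation 2. The part of this trend in the differences of long and short genes below was examined by a fit with a length term per library. That fit turned the sign of 7 of 37 list medians, and its median is given for each of these whose median is printed.

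**Figure D1:**
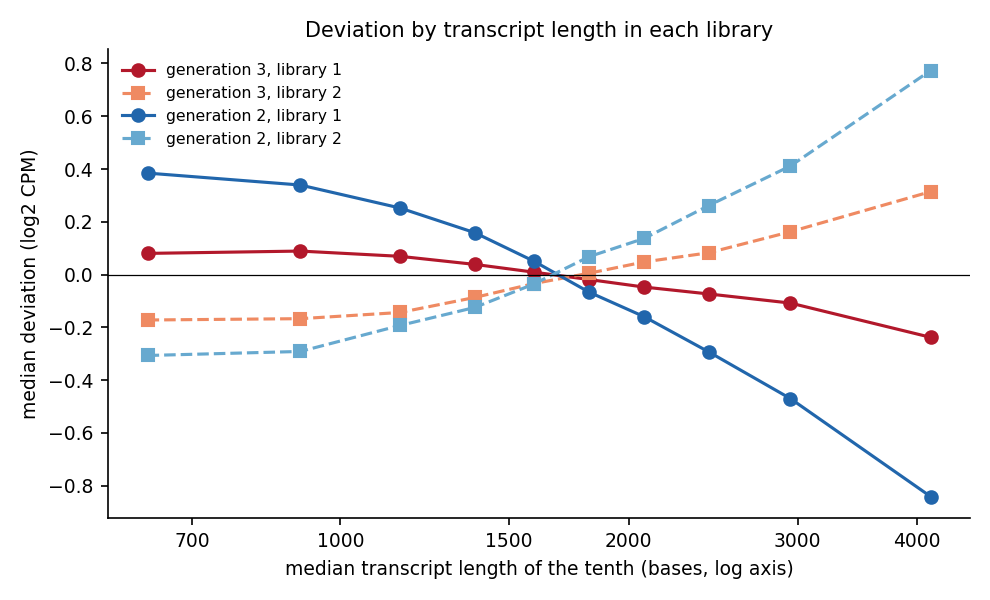
Median deviation from each gene's mean over the 4 libraries (log2 CPM, y axis) in 10 equal groups of genes ordered by transcript length (x axis, bases, log scale), with a line for each library. The lines of library 1 fall and those of library 2 climb with length in both generations, and the generation 2 lines are the steepest, ending at -0.84 and 0.77.

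No gene separated the generations beyond the spread at the threshold used. The quasi-likelihood F-test of edgeR called 0 of 18631 genes at a Benjamini-Hochberg adjusted p under 0.05 (0%). At an unadjusted p under 0.05 it had 12 genes higher (0.0644%) and 42 genes lower (0.225%) in generation 3. DESeq2 called 3 genes at an adjusted p under 0.05, 1 as higher (0.00537% of genes tested), which was TCP4, and 2 as lower (0.0107%), CPuORF14 among them, and limma with voom weights called 0 and had 24 at an unadjusted p under 0.05. The common biological coefficient of variation was 0.610, and the median log2 fold change of all genes was -0.07. Both generation 3 libraries lay above both generation 2 libraries in 897 genes (4.81%) and below them in 1204 genes (6.46%). Without library 1 of generation 2, edgeR called 207 genes, 204 of them lower in generation 3, and it called 0 when any of the other 3 libraries was left out. In whole leaves, a change in the share of cells of a type and a change in RNA per cell cannot be told apart, here or below.

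TCP4 had the smallest p among the genes with higher values in generation 3. It encodes a TCP transcription factor that promotes leaf maturation and is cut by the microRNA miR319. Its level was 31.6 and 54.0 CPM in generation 3, against 2.33 and 1.81 CPM in generation 2. The groups were far apart. The fold change on the log2 scale was 4.37 ± 0.66 (SE, 2 libraries per generation), with an edgeR unadjusted p of 0.000706 and adjusted p of 1.00, and a DESeq2 adjusted p of 1.26e-05. The fold change stayed between 3.98 and 4.93 over all alternatives. The gene lies on chr3:5061681-5064115 (TAIR10), and the deposited counts and FPKM imply a transcript of 4058 bases, longer than that span, so its counts may include sequence outside the annotated gene.

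TCP4 belongs to a set of TCP genes with a miR319 site in the coding sequence, and the site is shown because it is what these genes share. The sequences were read from RefSeq's TAIR10.1 copy of the genome. In the microRNA (chr4:12353109-12353129, written with T for U) the seed, bases 2 to 8, is in capitals, and in the TCP4 site (chr3:5063300-5063320) and the TCP10 site (chr2:13221210-13221230, minus strand) capitals mark the bases that pair with it:
MIR319A mature: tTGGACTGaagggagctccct
TCP4 site: gaGGgGtcCCCTTCAGTCCAg
TCP10 site: AaGGgGtaCCCTTCAGTCCAg

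By Watson-Crick rules, which the capitals follow, the TCP4 site pairs at 15 of 21 bases and the TCP10 site at 16. Other kinds of pairing were not counted. The other members of the set did not separate the generations, and they were chosen for their site after the values of TCP4 were seen. TCP10 was at 89.4 and 90.8 CPM in generation 3 and 115 and 55.3 CPM in generation 2. TCP2 was at 67.05 and 36.4 CPM in generation 3 and 79.4 and 22.5 CPM in generation 2. TCP24 and TCP3 overlapped in the same way, with log2 fold changes of -0.03 ± 0.81 and -0.44 ± 0.65. In each of these 4 genes library 1 of generation 2 was the highest of the 4 libraries, whereas TCP4 was low in that library. TCP4 also took low and high values inside other groups of the series. Scaled over all 10 libraries it was 52.9 and 3.12 CPM in wild type and 1.89 and 48.3 CPM in sgs3-12, and it was 34.8 and 41.1 CPM in 30 °C-grown plants.

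CPuORF14, a gene annotated for a conserved peptide upstream of a longer reading frame, had lower values in generation 3. It was at 2.82 and 1.92 CPM in generation 3, against 28.05 and 23.595 CPM in generation 2. Its log2 fold change was -3.44 ± 0.61, with an edgeR unadjusted p of 0.00157 and a DESeq2 adjusted p of 0.00584. Its span on chr5:21327712-21330136 is also that of AT5G52550, and the counting could split reads between them, so the value of either is uncertain. Summed with its partner, the locus still separated, at 5.47 and 3.76 CPM in generation 3 and 28.1 and 25.6 CPM in generation 2. In the other groups it was 35.4 and 2.75 CPM in wild type, 22.4 and 21.6 CPM in 30 °C-grown plants and 34.7 and 28.3 CPM in sgs3-12.

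Further loci with upstream peptides are named by the same rule, and only some hold when the overlapping genes are summed. CPuORF32 was at 63.2 and 88.8 CPM in generation 3 and 39.5 and 34.3 CPM in generation 2, and with NMT3, which encodes an enzyme of phosphocholine synthesis, it came to 1201 and 1125 CPM in generation 3 and 782 and 536 CPM in generation 2. CPuORF49 was at 0.65 and 2.27 CPM in generation 3 and 9.43 and 45.3 CPM in generation 2. Together with HSFB1, a heat shock factor that acts as a repressor, it came to 28.9 and 33.7 CPM in generation 3 and 20.9 and 96.4 CPM in generation 2, so the sums overlapped. The sum of AT1G36730, which encodes a translation initiation factor 5, and CPuORF19 overlapped as well, at 63.4 and 143 CPM in generation 3 and 33.8 and 151 CPM in generation 2.

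ATG4A, a cysteine protease that processes ATG8 in autophagy, had lower values in generation 3. It was at 18.23 and 13.1 CPM in generation 3, against 81.7 and 48.8 CPM in generation 2, with log2 fold change -2.06 ± 0.59 and an edgeR unadjusted p of 0.0146 (adjusted p of 1.00). The overlapping gene AT2G44130 had no counts in these libraries, so nothing was added by summing. Over the other groups ATG4A was 60.6 and 86.1 CPM in wild type, 16.3 and 14.9 CPM in 30 °C-grown plants and 15.5 and 14.4 CPM in sgs3-12. Generation 2 thus lay near wild type and generation 3 near the other groups, a comparison not tested here.

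The other named genes with lower values in generation 3 mostly owed their difference to library 2 of generation 2. NAC019, a stress-responsive NAC factor of jasmonate and abscisic acid signalling, was at 1.35 and 1.57 CPM in generation 3 and 1.89 and 80.5 CPM in generation 2. Its log2 fold change was -4.81 ± 1.68 with all libraries and -0.35 without library 2 of generation 2. AGP1, an arabinogalactan protein of the cell wall, was at 11.5 and 12.8 CPM in generation 3 and 19.9 and 153 CPM in generation 2. XTH18, a xyloglucan-modifying enzyme, was at 1.47 and 0.70 CPM in generation 3 and 4.32 and 34.5 CPM in generation 2. AT1G19380, PGSIP8 and AT1G32920 had the same shape, with 7.94, 4.22 and 7.45 CPM in library 1 of generation 2 and 84.2, 32.3 and 69.1 CPM in its library 2. AT4G28240, annotated as a wound-responsive family protein, differed the other way, at 15.5 and 8.92 CPM in generation 3 and 104 and 26.5 CPM in generation 2.

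Among the named genes with higher values in generation 3, GOLS2 had close libraries within each of these generations, though not in the other groups. It encodes galactinol synthase, which starts the synthesis of raffinose sugars in stressed leaves. GOLS2 was at 20.1 and 22.8 CPM in generation 3, against 9.88 and 8.32 CPM in generation 2, with log2 fold change 1.23 ± 0.54 and an edgeR unadjusted p of 0.0635 (adjusted p of 1.00). Its relatives did not share this: GOLS1 was at 21.5 and 86.0 CPM in generation 3 and 7.75 and 71.0 CPM in generation 2, and GOLS3 was at 4.65 and 1.09 CPM in generation 3 and 5.46 and 11.5 CPM in generation 2. AT5G63180, a probable pectate lyase, was at 53.6 and 92.3 CPM in generation 3 and 33.9 and 32.0 CPM in generation 2.

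ASPG1, an aspartic protease known from guard cells, was at 393 and 559 CPM in generation 3 and 172 and 280.3 CPM in generation 2. ATL55, a RING-type ubiquitin ligase, was at 305 and 186 CPM in generation 3 and 45.4 and 105 CPM in generation 2. CAT3, a catalase that removes hydrogen peroxide, was at 2037 and 657 CPM in generation 3 and 548 and 563 CPM in generation 2, so its log2 fold change of 1.28 ± 0.73 rested on library 1 of generation 3 and was 0.24 without it. AT3G09450 likewise rested on library 2 of generation 3, with 6.12 and 30.8 CPM in generation 3 and 3.82 and 4.61 CPM in generation 2. AT1G76960, AT1G76240, AtRLP26 and AT4G03410 completed the set, with log2 fold changes from 0.98 to 2.09 and edgeR unadjusted p from 0.031 to 0.134.

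**Figure D2:**
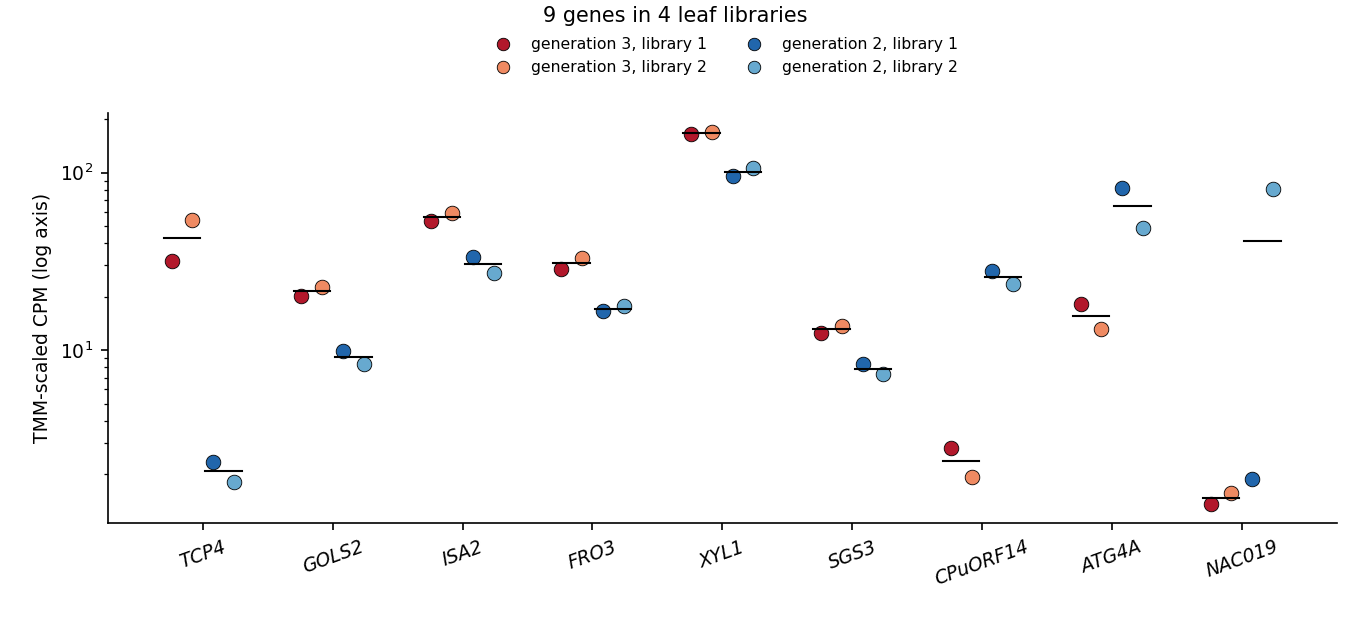
TMM-scaled CPM (log axis) of 9 named genes in each of the 4 libraries, generation 3 left of generation 2, with a bar at each generation's mean. TCP4 and CPuORF14 lie apart by far more than their libraries spread. ATG4A lies apart without overlap, with a wider spread in generation 2 than in generation 3. GOLS2, ISA2, FRO3, XYL1 and SGS3 lie apart by a smaller step without overlap, and NAC019 differs through library 2 of generation 2 at 80.5 CPM.

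Early genes of touch, wounding and chitin gave the median of the largest size among the 37 lists. These are transcription factors, calmodulin-like proteins and ubiquitin ligases that leaves switch on within minutes of being handled or attacked. Of 25 tested members of 26, 0 were called and 0 had a positive fold change, and the median log2 fold change was -2.11, against -0.07 over all genes. Library 2 of generation 2 was the highest in all 25, by 4-fold or more in 19, whereas over all genes it was the highest in 33.2%. CML9 was the 1 member with both generation 3 libraries below both generation 2 libraries (4% of members, against 6.46% of all genes), at 224 and 195 CPM in generation 3 and 227 and 344 CPM in generation 2.

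WRKY18, a WRKY factor of defence, was at 7.06 and 6.17 CPM in generation 3, against 5.01 and 389 CPM in generation 2. WRKY40, its close relative, was at 3.06 and 3.76 CPM in generation 3 and 0.84 and 194 CPM in generation 2. TCH3, a calmodulin-like touch gene, was at 175 and 93.0 CPM in generation 3 and 78.5 and 789.9 CPM in generation 2. In each of them generation 3 and library 1 of generation 2 were low together and library 2 of generation 2 was alone. RRTF1, a redox-responsive ERF factor left out of the test by the filter, had 0 and 4 counts in generation 3 and 0 and 2744 counts in generation 2. The list's sum was 696 and 527 CPM in generation 3 and 465 and 3679 CPM in generation 2, and its median log2 fold change was 0.78 without library 2 of generation 2.

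WRKY factors bind the W-box, and the promoter of WRKY33, a regulator of camalexin defence that was at 50.2 and 38.4 CPM in generation 3 and 11.3 and 344 CPM in generation 2, shows it. The 250 bases before its RefSeq gene start (chr2:16107985-16108234, plus strand, TAIR10.1) carry 2 matches to TTGACC or TTGACT on either strand, in capitals:
WRKY33 promoter: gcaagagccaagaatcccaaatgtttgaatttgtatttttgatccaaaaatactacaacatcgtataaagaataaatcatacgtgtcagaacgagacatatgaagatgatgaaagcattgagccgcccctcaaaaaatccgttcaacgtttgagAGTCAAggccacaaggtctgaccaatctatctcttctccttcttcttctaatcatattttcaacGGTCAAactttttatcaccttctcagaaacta

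A match of this kind stood in the promoters of 11 of the 25 members (44.0%) and in 28.0% of the promoters of all genes tested that had one, 5120 of 18261. A match is a description of letters and says nothing of binding.

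Jasmonate genes followed the same library. Jasmonate is the wound hormone made from membrane lipids by LOX, AOS, AOC and OPR3, and JAZ proteins hold its response down. Of 20 tested members of 23, 0 were called, 2 lay above and 2 below (10% each, against 4.81% and 6.46% of all genes), and the median log2 fold change was -1.21. Library 2 of generation 2 was the highest in 16, by 4-fold or more in 9, and without it the median was 1.04. LOX3, a lipoxygenase, was at 16.3 and 28.6 CPM in generation 3 and 7.75 and 809 CPM in generation 2. OPR3, a reductase of the same pathway, was at 20.5 and 30.0 CPM in generation 3 and 10.9 and 594 CPM in generation 2. JAZ1, a repressor, was at 3.88 and 21.7 CPM in generation 3 and 1.54 and 435 CPM in generation 2. Each of these biosynthesis and repressor genes was thus low in 3 libraries.

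Other jasmonate genes did not follow it. JAZ3 and JAZ12 separated the generations with a small step. JAZ3 was at 44.5 and 32.5 CPM in generation 3 and 56.1 and 55.5 CPM in generation 2, and JAZ12, whose locus overlaps AIP2, was at 80.3 and 68.2 CPM in generation 3 and 86.6 and 92.4 CPM in generation 2. VSP1, a storage protein that accumulates late in the response, was at 3.41 and 17.7 CPM in generation 3, against 2.53 and 3.34 CPM in generation 2. Its difference thus rested on library 2 of generation 3. VSP2 overlapped, at 22.0 and 104 CPM in generation 3 and 11.9 and 52.3 CPM in generation 2.

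Salicylic acid and immunity genes also split generation 2. Of 19 tested members of 20, 0 were called and 0 separated the generations, against 11.3% of all genes. The median log2 fold change was -0.81 with all libraries and 2.04 without library 2 of generation 2. PR1, the classical marker of this defence, was at 43.7 and 24.9 CPM in generation 3 and 0.45 and 116 CPM in generation 2. CBP60G, a factor that turns on salicylic acid synthesis, was at 20.6 and 10.2 CPM in generation 3 and 1.99 and 114 CPM in generation 2. FMO1, an enzyme of systemic resistance, was at 0.65 and 0.31 CPM in generation 3 and 0.05 and 32.8 CPM in generation 2. In these genes generation 3 lay between an almost silent and a high library of generation 2.

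Cold and abscisic acid genes were lower in generation 3 by their median in every alternative, mostly through library 2 of generation 2. Of 19 tested members of 20, 0 were called, 6 lay below (31.6%, against 6.46% of all genes) and 0 above, and 3 had an edgeR unadjusted p under 0.05. KIN1 and CBF1, among the 6 below, were each at 0.18 and 0.17 CPM in generation 3, levels that rest on few reads. The median log2 fold change was -0.76, and -0.10 without library 2 of generation 2. That library was the highest in 14 of the 19, by 4-fold or more in 8, whereas over all genes it was the highest in 33.2%. The list's sum was 1036 and 752.5 CPM in generation 3 and 1037 and 3248 CPM in generation 2. KIN2, a small protein induced by cold and drought, was at 57.8 and 36.5 CPM in generation 3 and 71.1 and 86.9 CPM in generation 2. COR15A, which protects chloroplast membranes in the cold, was at 24.3 and 19.9 CPM in generation 3 and 47.6 and 27.3 CPM in generation 2. NCED3, the rate-limiting enzyme of abscisic acid synthesis, was at 7.88 and 9.10 CPM in generation 3 and 9.73 and 86.5 CPM in generation 2. KIN2 and COR15A separated the generations, COR15A with a log2 fold change of -0.76 that was -0.30 without library 1 of generation 2, while NCED3 leaned on library 2 of generation 2. CBF1 and CBF2, regulators of the cold response, were at or below 1.82 CPM in generation 3 and at 0.89 and 8.23 CPM and 2.73 and 13.5 CPM in generation 2.

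**Figure D3:**
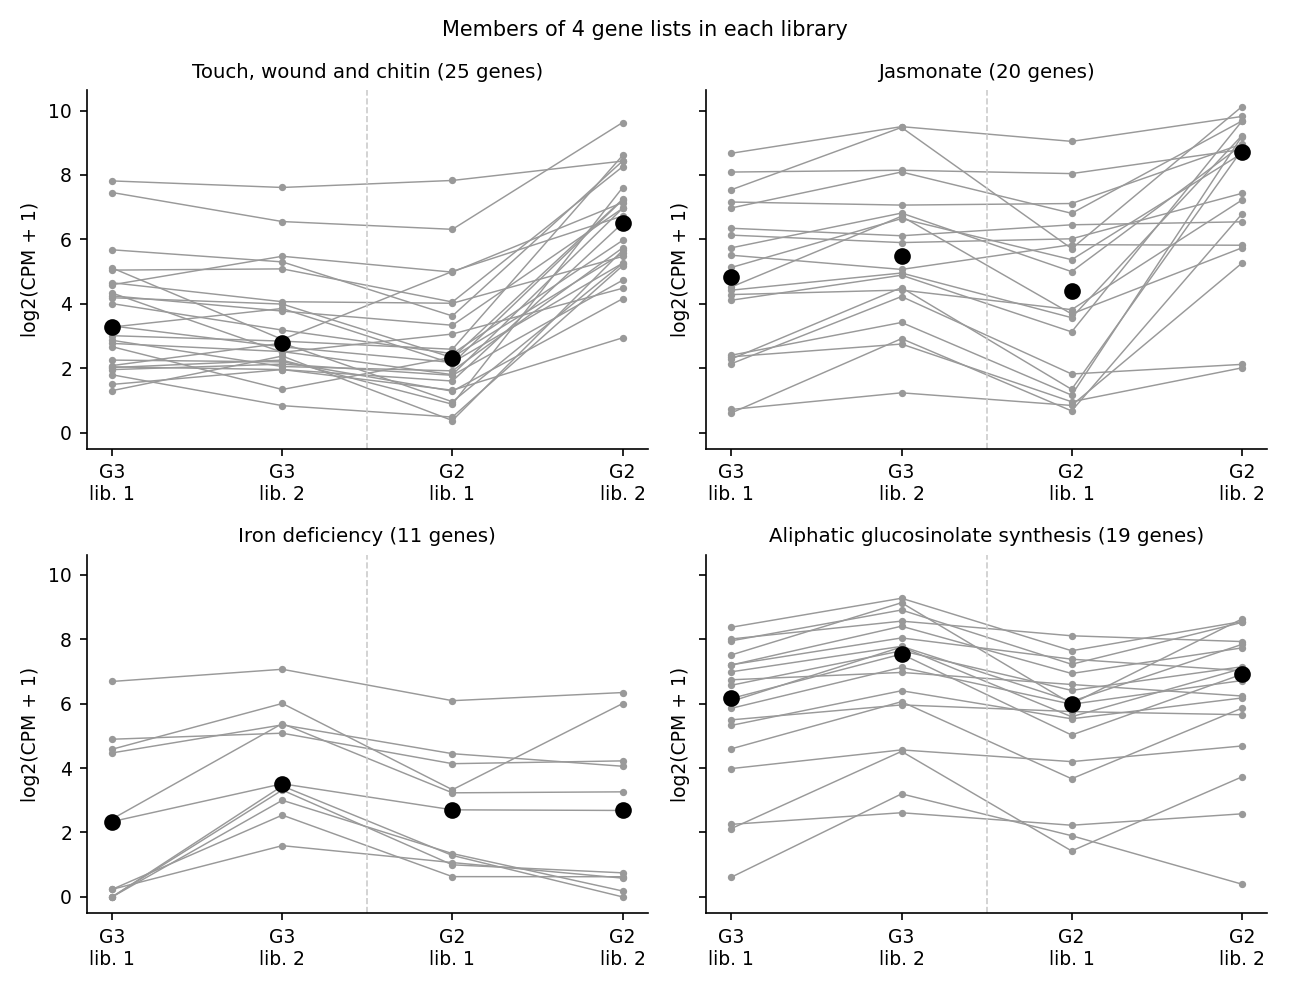
Level of each tested member (grey, log2(CPM + 1)) of 4 gene lists in the 4 libraries, generation 3 left of the dashed line and generation 2 right of it, with the list's median as a black point. Touch and jasmonate genes climb in library 2 of generation 2, iron deficiency genes in library 2 of generation 3, and glucosinolate genes are higher in library 2 of both generations.

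Heat shock genes had a share of separated members near or under that of all genes. Of 29 tested heat shock proteins and chaperones of 32, 0 were called, 0 lay above and 2 below (6.90%, against 6.46% of all genes). HSP101, the chaperone that dissolves protein aggregates, was at 2.06 and 5.90 CPM in generation 3 and 1.74 and 9.49 CPM in generation 2. HSP17.6A-CI, a small heat shock protein, was at 0.76 and 1.44 CPM in generation 3 and 1.59 and 2.12 CPM in generation 2. HSP21 and HSP22 had 0 counts in all 4 libraries.

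The constitutive and stress chaperones differed by library number more than by generation: 23 of 29 members were higher in library 2 than in library 1 of both generations, against 36.0% of all genes. HSP90.1 was at 4.94 and 25.2 CPM in generation 3 and 2.63 and 53.7 CPM in generation 2, and HSP70-4 at 9.76 and 73.2 CPM in generation 3 and 3.97 and 106 CPM in generation 2. The list's median log2 fold change was -0.49, but it was 1.88 when library 2 of generation 2 was left out and -1.33 when that of generation 3 was. Heat shock factors had 2 of 16 tested members below (12.5%, against 6.46% of all genes) and 0 above. Their median was -0.08, but 0.29 without library 2 of generation 2 and 0.02 with the length term. HSFA2, the factor of acquired heat tolerance, was at 1.06 and 2.67 CPM in generation 3 and 1.29 and 1.94 CPM in generation 2. HSFA4C was at 10.2 and 9.53 CPM in generation 3 and 12.5 and 17.9 CPM in generation 2, with log2 fold change -0.62 ± 0.55. Genes of the unfolded protein response in the endoplasmic reticulum had 0 of 13 members separated, against 11.3% of all genes. Their median was -0.10, which was 1.72 without library 2 of generation 2 and 0.06 with the length term. BIP2, a chaperone of that compartment, was at 20 and 44.5 CPM in generation 3 and 3.48 and 156 CPM in generation 2.

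In the trans-acting small RNA pathway, SGS3 showed a small step, while the list as a whole did not. SGS3, which stabilizes the cleaved TAS transcript, was at 12.5 and 13.7 CPM in generation 3, against 8.39 and 7.32 CPM in generation 2. The libraries within each generation were close and the log2 fold change was 0.73 ± 0.54, with an edgeR unadjusted p of 0.224 and adjusted p of 1.00, and from 0.65 to 0.94 over all alternatives. AGO7, the argonaute that cuts TAS3 with miR390, was at 13.9 and 13.2 CPM in generation 3 and 7.65 and 11.8 CPM in generation 2. It lay above by a margin within the spread of generation 2, with log2 fold change 0.48 ± 0.56 and an edgeR unadjusted p of 0.425. RDR6, the polymerase that makes the second strand, overlapped, at 9.65 and 12.8 CPM in generation 3 and 3.28 and 14.6 CPM in generation 2.

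TAS3 itself was at 15.9 and 16.1 CPM in generation 3 and 19.9 and 16.6 CPM in generation 2, below by a margin within the spread of generation 2. Its targets ARF3 and ARF4, auxin response factors of leaf polarity, overlapped: ARF3 was at 18.7 and 12.5 CPM in generation 3 and 18.1 and 8.86 CPM in generation 2. HTT2, a heat tolerance gene targeted by TAS1 small RNAs, was at 7.59 and 9.88 CPM in generation 3 and 8.94 and 11.3 CPM in generation 2, and HTT1 had 9 and 6 counts in generation 3 and 2 and 3 counts in generation 2, too few to test. Over the list, 2 of 20 tested members lay above (10%, against 4.81% of all genes) and 1 below (5%, against 6.46%). The median log2 fold change was -0.01, but 0.45 without library 2 of generation 2 and 0.09 with the length term. As libraries are polyA RNA, the small RNAs were not measured.

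Chromatin genes differed mainly by library number. Of 17 genes of DNA methylation and RNA-directed DNA methylation, 16 were higher in library 2 of both generations. Among the 17, 0 separated the generations, against 11.3% of all genes. The median log2 fold change of -0.54 was 1.1 without library 2 of generation 2. These are long transcripts, with a median of 4161 bases, and with a length term the median was -0.27. ROS1, a DNA demethylase, was at 4.70 and 19.2 CPM in generation 3 and 5.41 and 54.0 CPM in generation 2. MET1, the methyltransferase that maintains CG methylation, was at 9.12 and 9.49 CPM in generation 3 and 9.43 and 14.1 CPM in generation 2. Genes that write or erase H3K27 methylation had a median of -0.07, which was 0.70 without library 2 of generation 2, with 1 of 13 above (7.69%, against 4.81% of all genes). REF6, a demethylase, was at 4.47 and 15.5 CPM in generation 3 and 2.53 and 15.6 CPM in generation 2, and BRM, its remodelling partner, was at 6.88 and 31.6 CPM in generation 3 and 5.86 and 85.0 CPM in generation 2.

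Clock genes separated library 1 from library 2 and not the generations. CCA1 and LHY are the morning repressors of the plant clock, and GRP7 is an RNA-binding protein that peaks towards evening. CCA1 was at 46.5 and 243 CPM in generation 3 and 30.5 and 320.0 CPM in generation 2, and LHY at 27.9 and 273 CPM in generation 3 and 18.4 and 272 CPM in generation 2. GRP7 ran the other way, at 133 and 29.3 CPM in generation 3 and 103 and 16.05 CPM in generation 2. Of 15 morning-phased genes, 12 were higher in library 2 of both generations, and of 9 tested evening-phased genes, 6 were higher in library 1 of both and 0 in library 2 of both. The medians of log2 fold change between generations were 0.05 for the morning list and 0.43 for the evening list, but the morning median was -0.92 without library 2 of generation 3 and the evening median -0.88 without library 1 of generation 3. LUX, of the evening complex, was the 1 member below (11.1% of its list, against 6.46% of all genes), at 2.88 and 2.41 CPM in generation 3 and 4.57 and 3.93 CPM in generation 2.

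The promoters of CCA1 and GRP7 are shown because they carry the elements known from these phases. The 250 bases before the gene start hold 1 match to the G-box CACGTG in CCA1 (chr2:19245341-19245590, plus strand) and 3 matches to the evening element AAAATATCT, on either strand, in GRP7 (chr2:9266558-9266807, minus strand), in capitals:
CCA1 promoter: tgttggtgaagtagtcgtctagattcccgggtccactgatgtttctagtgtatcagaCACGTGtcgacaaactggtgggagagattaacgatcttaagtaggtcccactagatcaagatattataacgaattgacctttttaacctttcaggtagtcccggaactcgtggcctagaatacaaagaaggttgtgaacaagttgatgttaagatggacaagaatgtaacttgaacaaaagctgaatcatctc
GRP7 promoter: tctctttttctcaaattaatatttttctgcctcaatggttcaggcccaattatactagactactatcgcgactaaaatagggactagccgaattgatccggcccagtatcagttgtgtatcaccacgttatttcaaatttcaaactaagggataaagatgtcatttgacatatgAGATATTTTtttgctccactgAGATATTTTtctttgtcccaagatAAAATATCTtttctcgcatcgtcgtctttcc

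CACGTG stood in 7 of 15 morning-phased promoters (46.7%), against 7.42% of all promoters, and AAAATATCT in 5 of 9 evening-phased promoters (55.6%), against 2.56% of all. The elements describe which promoters hold these letters and not what drove the values.

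Genes of light harvesting showed the same split with the opposite sign. Of 37 nuclear photosystem and antenna genes, 36 were higher in library 1 than in library 2 of both generations. Among the 37, 0 separated the generations, against 11.3% of all genes. Their median log2 fold change was -0.02, a sign that turned under 9 of 14 alternatives. It was 0.77 without library 1 of generation 2 and 0.06 with the length term. LHCB1.3, a chlorophyll-binding antenna protein, was at 45059 and 17812 CPM in generation 3 and 51381 and 15319 CPM in generation 2. LHCB1.4 was at 11095 and 1222 CPM in generation 3 and 14433 and 1370.0 CPM in generation 2. Rubisco activase, RCA, ran the other way, at 5917 and 12140 CPM in generation 3 and 2462 and 10783 CPM in generation 2, and CHS, chalcone synthase of the flavonoid pathway, was at 28.1 and 515 CPM in generation 3 and 18.3 and 439 CPM in generation 2. The labels do not give the time of sampling, and the part of clock phase in these values was not tested.

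**Figure D4:**
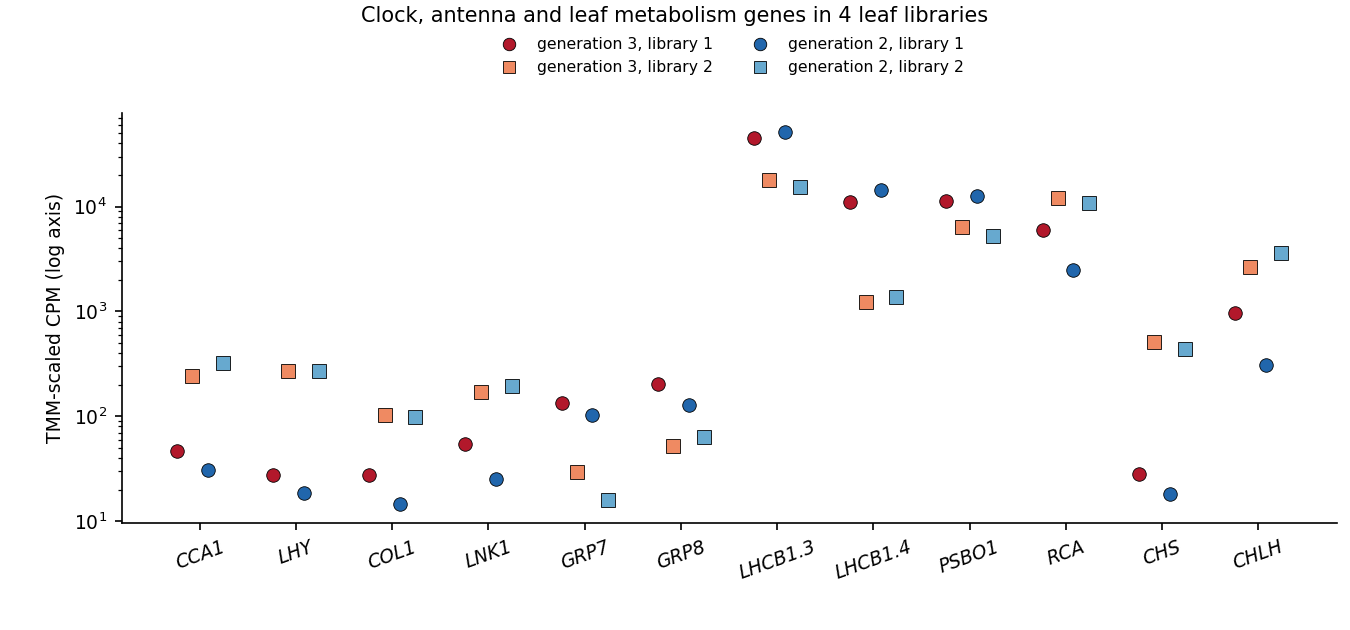
TMM-scaled CPM (log axis) of 12 clock, antenna and leaf metabolism genes in each library, generation 3 left of generation 2, circles for library 1 and squares for library 2. For each gene the squares lie together on a side of the circles across both generations, as for LHY at 273 and 272 CPM in library 2 of generations 3 and 2.

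Starch synthesis genes showed small steps, mostly with higher values in generation 3. Of 17 starch synthesis genes, 3 lay above, against 4.81% of all genes, and 1 below, 14 had a positive fold change, and the median log2 fold change was 0.16, or -0.01 without library 1 of generation 2. ISA2, a subunit of the debranching enzyme that shapes amylopectin, was at 53.2 and 59.1 CPM in generation 3, against 33.4 and 27.3 CPM in generation 2. Its libraries were close within each generation, and the log2 fold change was 0.89 ± 0.52 with an edgeR unadjusted p of 0.143 and adjusted p of 1.00. SBE2.2, a branching enzyme, was at 113 and 130.0 CPM in generation 3 and 99.7 and 103 CPM in generation 2. Of 19 starch breakdown genes, 1 lay above (5.26%, against 4.81% of all genes) and 0 below, and 11 had a positive fold change. Their median was 0.14, but -0.22 without library 1 of generation 3 and -0.01 with the length term. That gene was PHS1, a plastid glucan phosphorylase, at 59.6 and 49.9 CPM in generation 3 and 47.4 and 44.9 CPM in generation 2. Its locus overlaps AT3G29330, and the summed locus did not separate, at 65.5 and 52.7 CPM in generation 3 and 53.6 and 45.9 CPM in generation 2. BAM5, a cytosolic beta-amylase, separated library 1 from library 2, at 1.18 and 40.8 CPM in generation 3 and 1.64 and 46.6 CPM in generation 2.

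Greening genes had 4 of 17 members above, against 4.81% of all genes, and 0 below, with a median of 0.10 that was -0.01 without library 2 of generation 2. GLK1, a factor that activates chloroplast genes, was at 358 and 272 CPM in generation 3 and 249 and 168 CPM in generation 2. GNL, a GATA factor that promotes greening, was at 14.4 and 27.6 CPM in generation 3 and 11.5 and 9.31 CPM in generation 2, with log2 fold change 1.01 ± 0.60 and an edgeR unadjusted p of 0.147. CHLG, chlorophyll synthase, differed by less than its libraries spread, at 154 and 180.4 CPM in generation 3 and 154 and 139 CPM in generation 2. CAO, the remaining member above, was at 370 and 381 CPM in generation 3 and 339 and 349 CPM in generation 2. Its log2 fold change of 0.13 turned to -0.06 with the length term. Rubisco and carbonic anhydrase genes had 0 of 7 separated, against 11.3% of all genes. Their median was 0.13, which was -0.28 without library 2 of generation 3.

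Iron deficiency genes had higher medians in generation 3, for the most part through library 2. All 11 tested members of 12 had positive fold changes, where 41.7% of all genes did, and 3 lay above (27.3%, against 4.81% of all genes). The median log2 fold change was 0.85, and -0.91 without library 2 of generation 3. BHLH38, a regulator of iron uptake, was at 0 and 9.88 CPM in generation 3 and 1.44 and 0 CPM in generation 2. IMA3, a peptide that signals iron need, was at 4.35 and 40.7 CPM in generation 3 and 8.39 and 8.59 CPM in generation 2. In these regulators generation 3 libraries differed from each other more than from generation 2.

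Iron transport genes behaved otherwise. FRO3, a ferric reductase of mitochondria, was at 28.8 and 32.9 CPM in generation 3, against 16.6 and 17.7 CPM in generation 2, with log2 fold change 0.85 ± 0.52 and an edgeR unadjusted p of 0.157 (adjusted p of 1.00). OPT3, which loads iron into the phloem, was at 102 and 133 CPM in generation 3 and 67.2 and 80.3 CPM in generation 2. NAS4, a nicotianamine synthase, was at 21.2 and 39.5 CPM in generation 3 and 20.8 and 15.6 CPM in generation 2. FRO3 and OPT3 separated the generations in both libraries. FER1, a ferritin that stores iron, was at 242 and 1061 CPM in generation 3 and 486 and 553 CPM in generation 2, so it too was highest in library 2 of generation 3. Of the 3 ferritins tested, however, 2 were highest in library 1 of generation 2. FER3, 1 of these, was at 21.3 and 54.9 CPM in generation 3 and 55.9 and 50.3 CPM in generation 2.

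Aliphatic glucosinolate synthesis, which makes mustard oil precursors from methionine, had 18 of 19 members with positive fold changes and a median of 0.44. Of the 19, 14 were higher in library 2 of both generations, and without library 2 of generation 3 the median was -0.16. MYB28, the main regulator of the pathway, was the 1 gene above (5.26%, against 4.81% of all genes), at 106 and 124 CPM in generation 3 and 95.7 and 74.5 CPM in generation 2. CYP83A1, which oxidizes the aldoximes, was at 331 and 618 CPM in generation 3 and 199 and 374 CPM in generation 2. Phosphate starvation genes had 2 of 13 above (15.4%, against 4.81% of all genes), among them PAP17, a purple acid phosphatase, at 12.8 and 18.3 CPM in generation 3 and 10.5 and 8.50 CPM in generation 2. PAP17 overlaps AT3G17800, and their sum did not separate, at 149 and 278 CPM in generation 3 and 78.1 and 335 CPM in generation 2.

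Cell wall genes turned with the library left out, and cell division genes did not. XYL1, an alpha-xylosidase that trims xyloglucan, was the 1 member above among 23 wall-loosening genes, at 166 and 169 CPM in generation 3 and 95.3 and 106 CPM in generation 2, and 2 lay below (4.35% and 8.70%, against 4.81% and 6.46% of all genes). Its log2 fold change was 0.73 ± 0.52 (edgeR unadjusted p of 0.209, adjusted p of 1.00). The list's median was -0.41, and 0.55 without library 1 of generation 2, where expansins were high: EXPA8 was at 547 and 148 CPM in generation 3 and 680.2 and 10.6 CPM in generation 2. Of 10 cell division genes, 3 lay below (30.0%, against 6.46% of all genes) and 0 above, and the median of -0.51 kept its sign in every alternative. KNOLLE, a syntaxin of the dividing cell plate, was at 4.35 and 5.12 CPM in generation 3 and 7.84 and 7.01 CPM in generation 2, and PCNA1, the replication clamp, at 1.94 and 2.06 CPM in generation 3 and 4.92 and 2.53 CPM in generation 2. These levels were all low, as summed division genes came to 23.9 and 27.2 CPM in generation 3 and 38.7 and 32.5 CPM in generation 2.

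Flowering and age genes had 5 of 23 members below (21.7%, against 6.46% of all genes) and 1 above (4.35%, against 4.81%). Their median was -0.10, but 0.35 without library 1 of generation 2. SPL4, a target of miR156 that marks the adult phase, was at 18.1 and 12.1 CPM in generation 3 and 25.3 and 19.4 CPM in generation 2. SNZ, an AP2-like repressor of flowering, was at 36.3 and 38.5 CPM in generation 3 and 54.4 and 46.2 CPM in generation 2. MAF2, a relative of FLC, was at 9.41 and 7.92 CPM in generation 3 and 11.6 and 13.7 CPM in generation 2. FLC itself was at 0.76 and 0.96 CPM in generation 3 and 0.25 and 0 CPM in generation 2, levels too low to weigh. The flowering integrators SOC1 and FT overlapped, SOC1 at 176 and 49.2 CPM in generation 3 and 160 and 64.5 CPM in generation 2.

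Dark-induced genes had 3 of 18 members below (16.7%, against 6.46% of all genes), all of the BT family of scaffold proteins, and 0 above. BT5 was at 14.4 and 16.1 CPM in generation 3 and 18.7 and 59.8 CPM in generation 2, BT2 at 2.18 and 0.87 CPM in generation 3 and 3.57 and 21.0 CPM in generation 2, and BT4 at 4.88 and 2.71 CPM in generation 3 and 6.26 and 9.58 CPM in generation 2. In BT2 and BT5 the difference was mostly that of library 2 of generation 2. Senescence genes had 1 of 16 above and 1 below (6.25% each, against 4.81% and 6.46% of all genes). The gene above was PAO, which opens the chlorophyll ring, at 109 and 86.5 CPM in generation 3 and 77.1 and 78.6 CPM in generation 2. SAG13, a gene of senescence and oxidative stress, was at 33.1 and 22.96 CPM in generation 3 and 0.74 and 220.1 CPM in generation 2. Warm-temperature growth genes had 1 of 13 above (7.69%, against 4.81% of all genes), PIF1, a phytochrome-interacting factor of germination and greening, at 33.1 and 39.3 CPM in generation 3 and 31.2 and 27.1 CPM in generation 2. The log2 fold change of PIF1 was 0.31 ± 0.52, and 0.08 with the length term. Its implied length, 3193 bases, is longer than its span on chr2:8704024-8706900.

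Genes often used as references give the size of difference to read the rest against. Of 13, 1 lay above and 1 below (7.69% each, against 4.81% and 6.46% of all genes), with a median of 0.01. ACT8, an actin, was at 146 and 130.4 CPM in generation 3 and 86.7 and 119 CPM in generation 2, and UBQ10, a polyubiquitin, at 148 and 57.4 CPM in generation 3 and 240.0 and 190.0 CPM in generation 2. The implied length of UBQ10, 8746 bases, is longer than its span on chr4:2718170-2720308, so its counts may include sequence outside the annotated gene. Its log2 fold change was -1.07 ± 0.66, and -1.37 with the length term. TIP41L was the steadiest by its values, at 23.3 and 24.3 CPM in generation 3 and 24.5 and 24.0 CPM in generation 2. Vascular markers had 1 of 6 above and 1 below (16.7% each, against 4.81% and 6.46% of all genes): APL, a phloem factor, was at 17.2 and 21.4 CPM in generation 3 and 16.4 and 15.69 CPM in generation 2, and XCP1, a xylem protease, at 16.1 and 11.9 CPM in generation 3 and 25.4 and 17.9 CPM in generation 2. Guard cell markers had 0 of 5 separated (against 11.3% of all genes), and summed to 54.1 and 70.1 CPM in generation 3 and 50.4 and 66.0 CPM in generation 2. Epidermis and trichome markers had 1 of 3 above (33.3%, against 4.81% of all genes) and 0 below, with a median of 0.42. GL2 was the gene above, at low levels of 2.18 and 3.02 CPM in generation 3 and 1.34 and 0.72 CPM in generation 2. The epidermal factor ATML1 overlapped, at 62.2 and 49.4 CPM in generation 3 and 54.3 and 43.8 CPM in generation 2.

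**Figure D5:**
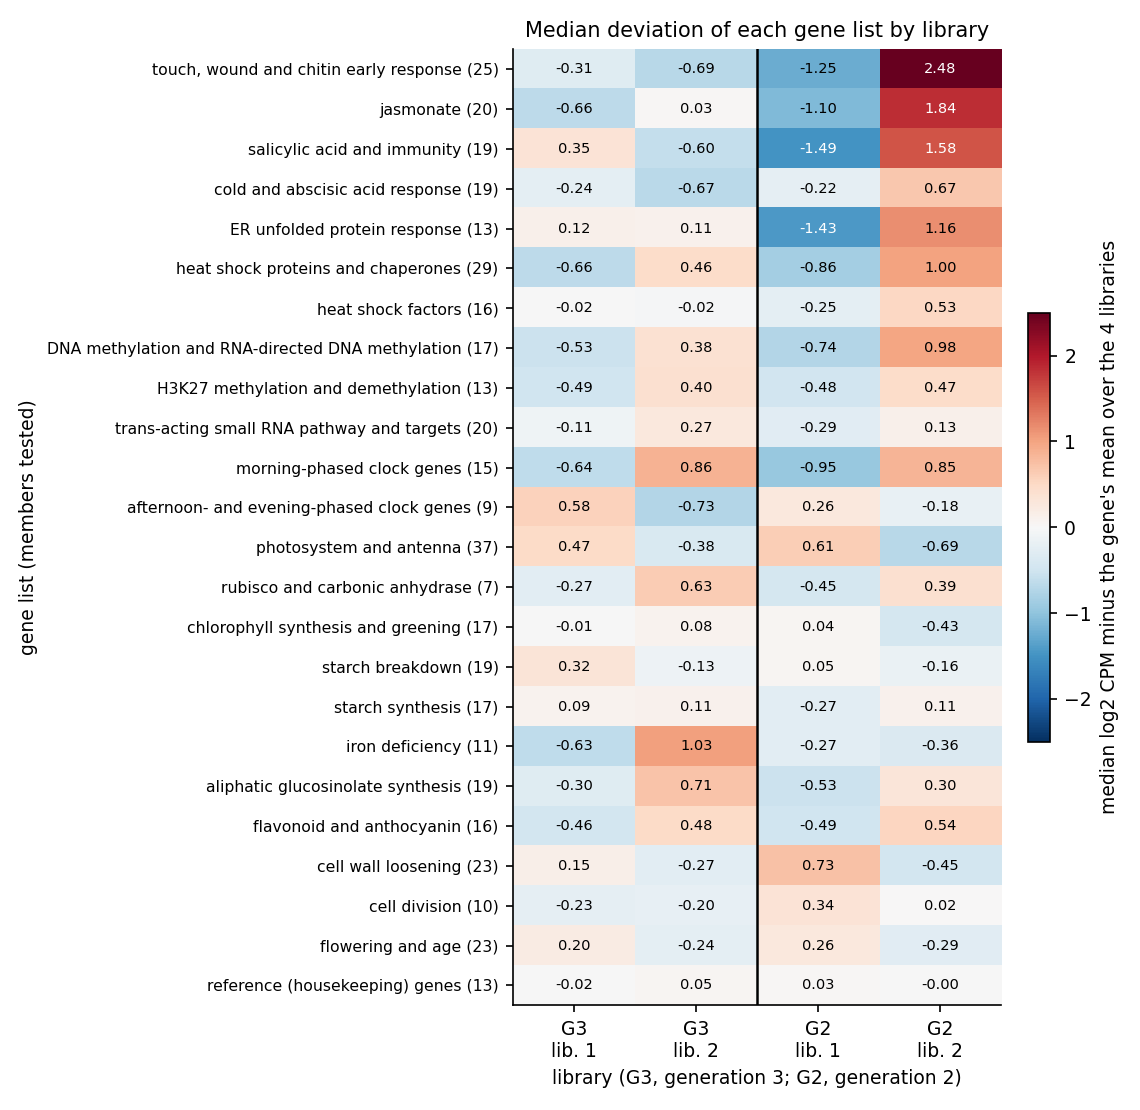
Median over each gene list's tested members (number in brackets) of log2 CPM minus the gene's mean over the 4 libraries, with generation 3 in the left columns and generation 2 in the right columns. The touch list runs from -1.25 to 2.48 within generation 2, while the medians of the reference genes lie between -0.02 and 0.05.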

How the data were processed

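For these libraries the submitters' processing notes name HISAT2 2.0.4, StringTie 1.3.0 and the TAIR10 build. The deposited table gives raw read counts per gene, made by the authors. Deposited FPKM values (fragments scaled to length and library size, per the file headers) served only to derive each gene's implied length from the 4 libraries, and 6 further FPKM columns were not used. The sources used here do not name the counting program or its strand setting, so overlapping genes are uncertain. Of 33602 gene IDs, 32835 matched RefSeq's gene table by ID. Of the genes tested, 1827 had an implied length over their locus span.

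Counts of the 4 libraries were tested with edgeR 4.0.16 in R 4.3.3 (TMM scaling, filterByExpr, quasi-likelihood F-test, generation as the only factor), with Benjamini-Hochberg adjustment over 18631 genes and a threshold of 0.05. Printed CPM are TMM-scaled over the 4 libraries, or over all 10 where other groups appear. Fold changes are log2, generation 3 over generation 2, with standard errors. Alternatives were RLE scaling, no filter, DESeq2 1.42.0, limma 3.58.1 with voom quality weights, fits of 10 and 8 libraries, a replicate block, a length term, and leaving out libraries. The edgeR script was tested on simulated data with known changes.

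Genes are named by a rule: a mean of 10 CPM or more, generations that do not overlap, and the same direction with the length term. From these come the 12 with the smallest p per direction and up to 4 per list and direction. A gene that meets the rule is not reported here. Any other gene was chosen after its values were seen. The 35 lists (577 entries, plus the organelle genomes) and the comparison were chosen with earlier results of these data known. A list of ribosomal proteins was left out, as the gene table has no descriptions. Totals of 17674090 to 22278385 counts per library set the precision of genes with few reads. Promoters are the 250 bases before RefSeq's gene start.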

Additional observations from a re-analysis of the deposited data

How the results depend on the processing

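The number of genes called between the generations was 0 with edgeR in all but 1 of its settings, at 3 with DESeq2, and ranged from 0 to 207 when libraries were left out, the 207 arising without replicate 1 of generation 2. That fit leaves a lone library in its generation, which is assumed to vary like generation 3. TCP4 and CPuORF14 were called by DESeq2 and without that library, with edgeR adjusted p of 0.0242 and 0.0342 there. All 56 named genes kept their direction in all 14 alternatives. The naming rule largely fixed this beforehand, as it asks for generations that do not overlap and the same direction with the length term. The kept direction is therefore no support for these genes. Of 37 list medians, 6 kept their sign: those of cold and abscisic acid, cell division, dark-induced, phosphate and reference genes and of epidermis and trichome markers. Without replicate 2 of generation 2 the sign of 14 medians turned, and without replicate 2 of generation 3 that of 14. RLE scaling turned 4, each near 0.

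Replicate numbers shared by the generations do not say that samples are paired. Deviations from the generation means of same-numbered samples correlated across genes at 0.523. A fit with the replicate number as a block called 0 genes, with 112 at an unadjusted p under 0.05 against 54 without the block, and turned 6 list medians. With 2 libraries per generation, the smallest standard error of a log2 fold change was 0.51 among all genes tested, and genes under 1 CPM rest on few reads.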
